A study of Mus musculus with 2 samples.

Results

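Tenocytes were selected on their own RNA counts in the scRNA-Seq libraries, as barcodes with more than 200 genes, under 10% mitochondrial UMIs, a UMI of at least 3 of the 6 genes Scx, Tnmd, Fmod, Thbs4, Comp and Mkx, and no UMI of Csf1r, Pecam1, Pax7 or Sox10. A UMI is a unique molecular identifier, so each count stands for 1 captured RNA molecule. The rule found 715 of 23385 kept barcodes in the IgG library and 423 of 24758 in the SPP1-nAb library, 1138 of 48143 in all. Chad and Kera, tendon matrix genes that the rule did not use, had 3120 and 1975 UMIs in the IgG tenocytes and 9 and 7 UMIs in the more numerous IgG fibro-adipogenic progenitor-like (FAP-like) cells. The tenocytes fell into 6 groups that differed in collagen, proteoglycan and chemokine RNA. Against IgG, SPP1-nAb tenocytes held more RNA of Mmp13, a collagenase, at a log2 ratio of 3.42, and less of S100a5, a calcium-binding protein, at -3.43, and of Omd, a matrix proteoglycan, at -1.43.

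Both libraries came from hindlimb muscle of male mice aged 10 to 16 weeks, harvested 7 days after bilateral crush of the peroneal nerve (7 dpi). The tibialis anterior (TA) received 2 μg of an antibody neutralizing SPP1 (osteopontin) or the same amount of goat anti-mouse IgG, in 10 μL at injury and again every 2 days. Each library pooled several mice, so each condition was 1 sample: no p-value was computed, every interval covers counting error only, and mice, sorting and library cannot be told apart from treatment. The labels name C57BL/6J mice, TA and gastrocnemius (GTN) muscle and a GFP-positive title beside a sort of both GFP-positive and GFP-negative live cells, whereas the study's methods name S100GFP transgenic mice, in which the S100b promoter drives GFP, for the antibody experiment. The labels and the study's cell isolation methods name both muscles for the harvest, whereas its results name the TA for this experiment. The antibody was injected into the TA. Because the loaded fraction is not settled, shares of barcodes describe the libraries rather than the muscle.

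The deposited barcodes numbered 23779 for IgG and 25069 for SPP1-nAb, with 97607674 and 127719916 UMIs. Tenocytes held a median of 2734 UMIs and 1319 genes in IgG and 3668 UMIs and 1616 genes in SPP1-nAb, against 4896 and 7697 UMIs in FAP-like cells. The libraries shared 163 barcode sequences, and no sequence was a tenocyte in both. Among barcodes that met the marker rule, a UMI of an excluded gene removed 89 of 804 in IgG and 81 of 504 in SPP1-nAb, most often the macrophage receptor Csf1r, with 55 and 51.

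Tenocytes are the fibroblasts of tendon. They lay down parallel collagen fibrils, and small leucine-rich proteoglycans such as fibromodulin and decorin control the width of those fibrils. Scleraxis (Scx) and Mohawk (Mkx) are the transcription factors that specify and maintain the lineage, tenomodulin (Tnmd) is a membrane protein of mature tendon cells, and thrombospondin-4 (Thbs4) and cartilage oligomeric matrix protein (Comp) are pentameric matrix proteins of tendon. In muscle preparations such cells come from the tendon, the aponeurosis and the junction with the muscle fibre.

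Since Scx binds E-boxes, with the letters CANNTG, promoters of 4 tendon genes are shown from RefSeq (GRCm38.p6, 250 bases before to 50 bases after the start, 5′ to 3′, + strand), with E-boxes in capitals: Tnmd and Fmod from the rule, and Chad and Kera, the leading genes outside it. They lie at chrX:133850758-133851057, chr1:134037004-134037303, chr11:94564797-94565096 and chr10:97606955-97607254, in that order.
Tnmd: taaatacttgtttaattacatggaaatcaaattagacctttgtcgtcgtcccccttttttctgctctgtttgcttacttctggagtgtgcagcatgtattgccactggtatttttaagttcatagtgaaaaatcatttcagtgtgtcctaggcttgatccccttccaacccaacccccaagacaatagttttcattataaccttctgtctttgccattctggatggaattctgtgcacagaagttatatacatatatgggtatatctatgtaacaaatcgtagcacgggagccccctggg
Fmod: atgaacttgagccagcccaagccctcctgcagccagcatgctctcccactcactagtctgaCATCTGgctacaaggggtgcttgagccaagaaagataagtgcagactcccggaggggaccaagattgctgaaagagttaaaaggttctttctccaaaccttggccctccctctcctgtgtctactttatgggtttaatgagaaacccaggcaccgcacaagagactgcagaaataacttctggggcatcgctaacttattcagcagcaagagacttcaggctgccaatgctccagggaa
Chad: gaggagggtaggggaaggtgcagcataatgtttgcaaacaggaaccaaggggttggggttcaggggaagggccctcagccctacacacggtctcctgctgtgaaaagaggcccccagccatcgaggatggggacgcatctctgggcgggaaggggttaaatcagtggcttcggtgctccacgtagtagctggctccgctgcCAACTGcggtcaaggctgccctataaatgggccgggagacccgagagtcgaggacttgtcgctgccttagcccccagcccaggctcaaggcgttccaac
Kera: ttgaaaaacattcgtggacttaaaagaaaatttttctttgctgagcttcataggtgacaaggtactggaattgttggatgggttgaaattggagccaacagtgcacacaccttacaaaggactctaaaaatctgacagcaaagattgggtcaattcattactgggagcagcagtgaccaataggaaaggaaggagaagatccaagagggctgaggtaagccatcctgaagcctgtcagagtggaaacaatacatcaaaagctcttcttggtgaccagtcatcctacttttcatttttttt
Searched on both strands, where a match reads the same, Fmod and Chad held 1 E-box each and Tnmd and Kera held none, while 72.3% of all 32851 RefSeq promoters of this length held at least 1. The letters TATAAA, which cannot overlap an E-box, were found once in Chad and in 13.6% of all promoters. Of the 6 rule genes and the 20 genes that led against FAP-like cells, 16 had a promoter to search, of which 10 held an E-box and 2 held TATAAA. No binding was measured here.

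The rule genes were detected unevenly, although each cell needed only 3 of them. On the GRCm39 build that the files use, Scx lies at chr15:76341563-76344281, Tnmd at chrX:132751720-132766326, Fmod at chr1:133964992-133976015, Thbs4 at chr13:92888095-92931501 and Comp at chr8:70826192-70834716. Thbs4 had a UMI in 99.0% of IgG and 99.5% of SPP1-nAb tenocytes, Fmod in 96.4% and 95.04%, and Tnmd in 88.0% and 81.3%. The less abundant regulators were found in fewer cells, Scx in 44.9% and 43.5% and Mkx in 55.0% and 51.5%. Scx overlaps Bop1, a gene on the opposite strand, and the sources used here do not state strand-specific counting.

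Levels are given as counts per 1000000 UMIs summed over the cells (CPM) and followed the same order. Thbs4 stood at 6975 CPM in IgG (95% Poisson interval 6873 to 7079) and at 10454 CPM in SPP1-nAb (10307 to 10601). Fmod stood at 4581 and 3833 CPM, Tnmd at 1767 and 1424 CPM, and Comp at 698 and 824 CPM. Mkx and Scx were close to each other, at 278 and 264 CPM in the IgG library and 258 and 261 CPM in the SPP1-nAb library. Among kept barcodes with Csf1r, which mark macrophages and should lack tendon genes, 2.50% and 3.50% had a UMI of Thbs4 and 0.523% and 0.534% a UMI of Scx, at median depths of 4247 and 5381 UMIs. Tenocytes made up few barcodes but held 69.5% of all Scx UMIs of kept IgG barcodes and 55.2% of those of SPP1-nAb, and 86.8% and 81.9% of the Tnmd UMIs. All of these values were used by the rule and are given as a description.

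**Figure D1:**
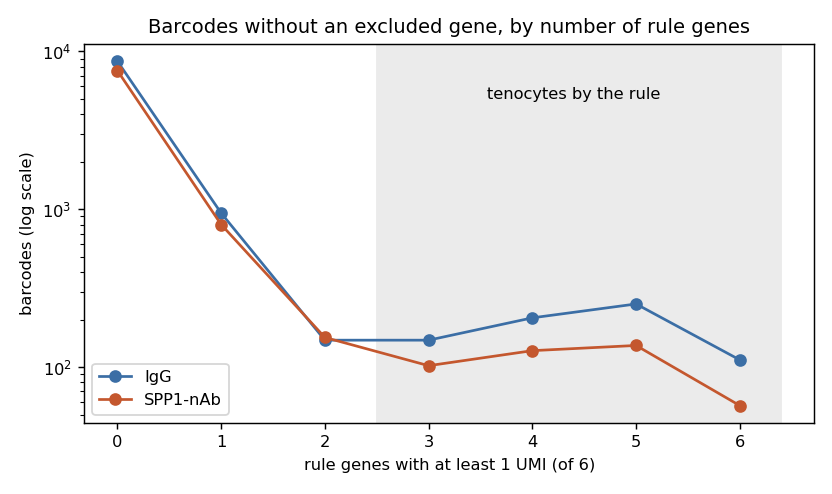
Barcodes without an excluded gene (log scale) by how many of the 6 rule genes had a UMI, for each library; the shaded range holds the tenocytes. In IgG the count was 148 at 2 genes, 148 at 3 and 251 at 5, and in SPP1-nAb it was 154 at 2, 102 at 3 and 137 at 5.

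The number of barcodes per rule-gene count was low at 2 and 3 genes and had a second peak at 5 genes in both libraries. The full set of 6 was found in 111 IgG and 57 SPP1-nAb cells. Just inside the threshold, the 148 IgG and 102 SPP1-nAb barcodes with exactly 3 rule genes held Thbs4 at 4789 and 4781 CPM and Fmod at 2010 and 1141 CPM. Just outside it, the 148 and 154 barcodes with 2 rule genes held Thbs4 at 1572 and 971 CPM and Fmod at 283 and 164 CPM. The 20 tendon genes that the rule did not use summed to 6926 and 5355 CPM inside against 4082 and 3406 CPM outside. FAP-like marker genes went the other way, at 2396 and 4544 CPM inside and 5252 and 5827 CPM outside. A UMI of Kera, Chad, Cilp2 or Ptx4, none of them in the rule, was present in 65.5% and 52.0% of barcodes with 3 rule genes, in 16.9% and 9.09% of those with 2, and in 1.59% and 0.750% of those with 1. Both sides of the threshold therefore held some tendon and some FAP-like RNA.

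Tenocytes were a smaller share of barcodes in SPP1-nAb than in IgG. They made up 3.06% of kept IgG barcodes (95% Clopper-Pearson interval 2.84 to 3.29%) and 1.71% of kept SPP1-nAb barcodes (1.55 to 1.88%), a ratio of 0.559. The FAP-like share differed by more, with a ratio of 0.404, as did the adventitial fibroblast-like share, with a ratio of 0.264. Counted among the connective-tissue classes alone, tenocytes were therefore the larger share in SPP1-nAb, 33.8% (31.2 to 36.5%) against 25.3% (23.7 to 27.0%). The direction thus depended on the denominator, and with sorted cells and 1 library per condition neither share can be read as an effect of the antibody.

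Outside the rule, tenocytes differed most from FAP-like cells in Chad, Kera, Cilp2 and Ptx4. FAP-like cells were kept barcodes with at least 3 of 8 FAP markers, fewer than 3 rule genes and no excluded gene, 1579 in IgG and 675 in SPP1-nAb. FAPs are the interstitial fibroblasts of muscle. Of 10063 genes with at least 100 UMIs over both classes, 285 were at least 2-fold higher in tenocytes in both libraries, which is 2.83%, and 613 were at least 2-fold lower in both, which is 6.09%. Since both classes were cut by genes measured in the same cells, these counts are a description and not a test.

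Chad, chondroadherin, a leucine-rich protein that binds collagen, led the ranking. It stood at 1242 CPM in IgG tenocytes and 1.08 CPM in IgG FAP-like cells, and at 955 and 0.948 CPM in SPP1-nAb. A UMI of Chad was found in 64.3% of IgG and 54.4% of SPP1-nAb tenocytes, but in 0.3% and 0.5% of sampled barcodes with Csf1r. Kera, keratocan, a proteoglycan of cornea and tendon, stood at 786 and 698 CPM against 0.837 and 2.09 CPM. Tenocytes held 89.0% and 85.7% of the Chad UMIs of all kept barcodes and 89.1% and 83.6% of the Kera UMIs. Neither gene was part of the rule, and Kera had a UMI in 46.3% and 43.7% of tenocytes.

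Cilp2, a matrix protein related to the cartilage intermediate layer protein, was 520-fold higher in IgG tenocytes than in IgG FAP-like cells, where it had 3 UMIs (log2 ratio 9.02, interval 7.47 to 11.31). In SPP1-nAb FAP-like cells Cilp2 had 0 UMIs, so with a floor of 3 counts over the class it was at least 212-fold higher in tenocytes. Ptx4, a long pentraxin, was 190-fold higher in IgG and at least 243-fold higher in SPP1-nAb. Wif1, a secreted inhibitor of Wnt proteins, was 127-fold and 115-fold higher. Chodl, the membrane lectin chondrolectin, was 66.3-fold and 108-fold higher, but tenocytes held only 11.9% and 13.3% of its UMIs among kept barcodes, so it was also found elsewhere. These 4 genes had UMIs in between 23.5% and 36.5% of tenocytes, well below the share with Fmod.

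Further down the ranking, Col11a1, a collagen that starts fibrils, stood at 708 and 571 CPM in tenocytes against 21.1 and 9.48 CPM in FAP-like cells. P3h2, a prolyl 3-hydroxylase of collagen, was 75.9-fold and 33.3-fold higher, and Ptgis, the prostacyclin synthase, 21.6-fold and 22.9-fold. Sema3a, a repellent of growing axons, stood at 271 and 145 CPM against 5.50 and 5.69 CPM. Hbegf, a ligand of the EGF receptor, was 16.5-fold and 18.1-fold higher and had a UMI in 47.0% and 59.8% of tenocytes. The other genes of the 20, Kirrel3, Rflnb, Atp6v0a4, Gas2, Edil3, Kctd1, Cacnb2, Limch1 and Ccdc3, were between 12.02-fold and 33.9-fold higher in each library.

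**Figure D2:**
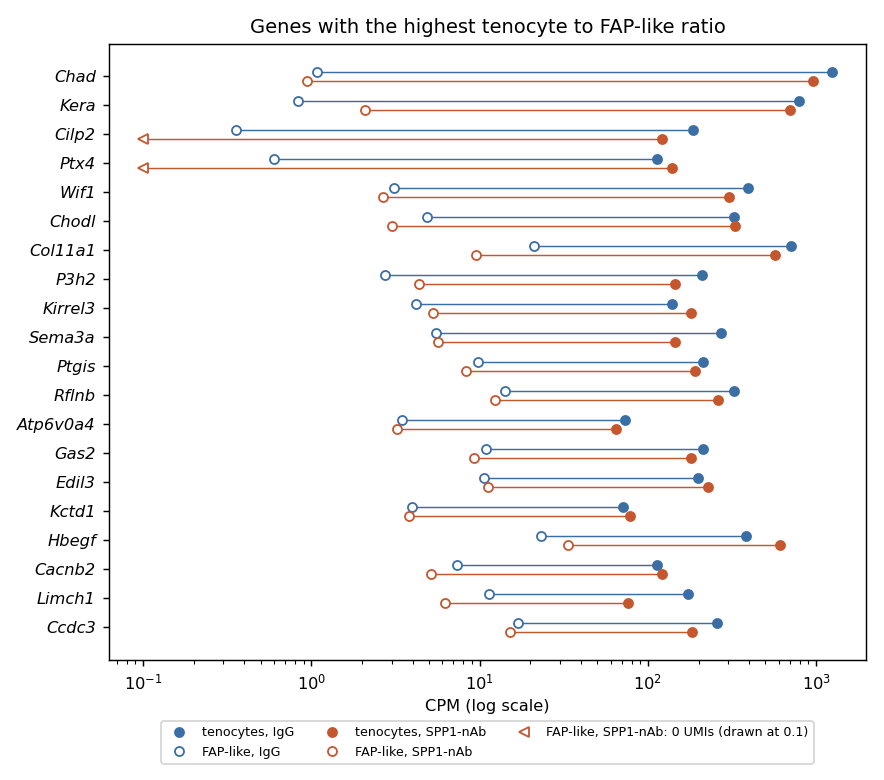
CPM (log scale) of the 20 genes with the highest tenocyte to FAP-like ratio, ranked by the smaller of the ratios in the 2 libraries; filled points are tenocytes and open points FAP-like cells. Chad stood at 1242 and 955 CPM in tenocytes and near 1 CPM in FAP-like cells, and Cilp2 and Ptx4 had 0 UMIs in SPP1-nAb FAP-like cells.

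Of the 20 tendon genes outside the rule, 14 were at least 2-fold higher than in FAP-like cells in both libraries and none was 2-fold lower, with a median log2 ratio of 3.16 in IgG and 1.95 in SPP1-nAb, beside -0.05 over all genes in both. The most abundant beside Chad and Ecrg4 were Angptl7, a secreted angiopoietin-like protein, at 1775 and 1361 CPM, Igfbp6, a binder of insulin-like growth factor 2, at 1475 and 900 CPM, and Cilp at 1028 and 1221 CPM. Angptl7 stood at 150 and 18.8 CPM in FAP-like cells, whereas Cilp stood at 584 and 1172 CPM there and so was shared with them. This list was drawn up with earlier results of these data known.

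Single collagens differed from FAP-like cells in both directions. Of 19 fibrillar and fibril-associated collagens, 5 were at least 2-fold higher than in FAP-like cells in both libraries and 4 at least 2-fold lower, beside 2.83% and 6.09% of all genes, with median log2 ratios of -0.11 and -0.75. Col1a2 stood at 9326 and 7280 CPM in tenocytes and Col1a1 at 7854 and 4868 CPM, against 4237 and 5487 CPM of Col1a1 in FAP-like cells. Col3a1, the fibrillar collagen of loose tissue, was lower, at 3066 and 2595 CPM against 6230 and 8407 CPM. In the tenocyte groups described below, Col3a1 stood at 7926 CPM in group 3 and at 185 to 903 CPM in the others. Col22a1, a collagen of the junction between muscle and tendon, stood at 101 and 105 CPM and had 0 UMIs in FAP-like cells of either library. Among the small leucine-rich proteoglycans, Dcn (decorin) was the most abundant, at 19606 and 15947 CPM, with a UMI in 99.4% and 99.0% of tenocytes, and Ogn (osteoglycin) stood at 3686 and 2649 CPM. Prg4, the lubricant lubricin, stood at 4951 and 4985 CPM in tenocytes and at 1060 and 1321 CPM in FAP-like cells.

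The lists of signals were read beside the same 2.83% higher and 6.09% lower of all genes. Of 29 counted genes of the TGF-beta, BMP and GDF list, 5 were at least 2-fold higher in tenocytes and 3 lower in both libraries. Bmpr1b, a BMP receptor, stood at 115 and 116 CPM against 10.1 and 14.98 CPM. Of 21 genes of mechanical load and YAP targets, 6 were higher and none lower. Tpm1, an actin-binding tropomyosin, stood at 1019 and 729 CPM against 176 and 238 CPM, and Piezo1, a stretch-gated channel, at 129 and 148 CPM against 25.6 and 64.6 CPM. Of 28 cytokine and chemokine genes none was higher and 13 were lower. Cxcl1 stood at 292 and 274 CPM in tenocytes and 1081 and 1480 CPM in FAP-like cells, and Ccl11, the eosinophil attractant eotaxin, at 44.2 and 51.0 CPM against 844 and 538 CPM. Cxcl14 and Smoc2 were lower too, but they helped to define FAP-like cells, so their direction was fixed by that choice.

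Clustering of the 1138 cells gave 6 groups, called here by number, each described by genes of the same cells and so without a test. The groups were only partly kept in other clusterings, where the adjusted Rand index, 1 for identical groups, was 0.50 to 0.60. Group 1 (146 cells), led by S100a5, Mt3, Pcolce2, Sema3a and Ecrg4, had the most RNA of small leucine-rich proteoglycans, 65419 CPM, and of the 20 tendon genes outside the rule, 23154 CPM. Group 2 (302 cells), led by Lcn2, Hpgd, Gm765, Clu and Timp3, had the most rule-gene RNA, 27048 CPM, with Prg4 at 10888 CPM in its IgG cells and 10247 CPM in its SPP1-nAb cells. Group 4 (336 cells) was led by Col22a1, Chodl, Tnfrsf21, Rapgef4 and Spock3, and Col22a1 had 0 UMIs in groups 1 and 2. Group 5 (139 cells), led by Ptprt, Itga8, Limch1, Matn4 and Slc5a3, held Chodl at 746 and Kirrel3 at 351 CPM, as group 4 did at 983 and 434 CPM, and Chad at 2194 CPM, near groups 1 and 2 at 2731 and 2478 CPM. These 4 groups had median depths between 2341 and 3048 UMIs.

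The other 2 groups stood apart. Group 3 (172 cells), led by Col14a1, Sfrp1, Col3a1, Serpine2 and Dpt, had a median of 8107 UMIs, collagen RNA of 39655 CPM against 8833 to 24314 CPM elsewhere, and FAP-like marker RNA of 2940 CPM against 688 to 1224 CPM. Its rule genes summed to 5638 CPM, the lowest of the 6. Group 6 (43 cells) was led by Cxcl2, Ccl6, H2-Aa, Cd74 and Ccl24, genes of antigen-presenting phagocytes, and held 11557 CPM of the 10 mononuclear phagocyte markers against 184 to 398 CPM in the other groups. Of its cells, 72.1% were in the top 10% of doublet scores of their library, against 17.4% in group 3 and 4.46% or less in groups 1, 2, 4 and 5. Group 6 cells still carried Fmod in 97.7% and Thbs4 in 100% of cells, and whether they were 1 cell or 2 in a droplet was not tested.

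The groups were not shared evenly between the libraries. Groups 2, 3 and 4 held 150, 90 and 195 IgG and 152, 82 and 141 SPP1-nAb cells, whereas groups 1 and 5 held 135 and 115 IgG but only 11 and 24 SPP1-nAb cells, and group 6 held 30 and 13. The clustering used the genes that differed between libraries, and a cluster mostly of 1 library may be that library rather than a type, so these counts are not read as a change in makeup. With gene values centred within each library, which removes mean library differences, 5 groups were found. The IgG share then ran from 51.8% to 71.6%, against 49.7% to 92.5% without centring. Without the genes past 2-fold between libraries, 6 groups were found and the IgG share still ran from 42.7% to 91.7%.

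**Figure D3:**
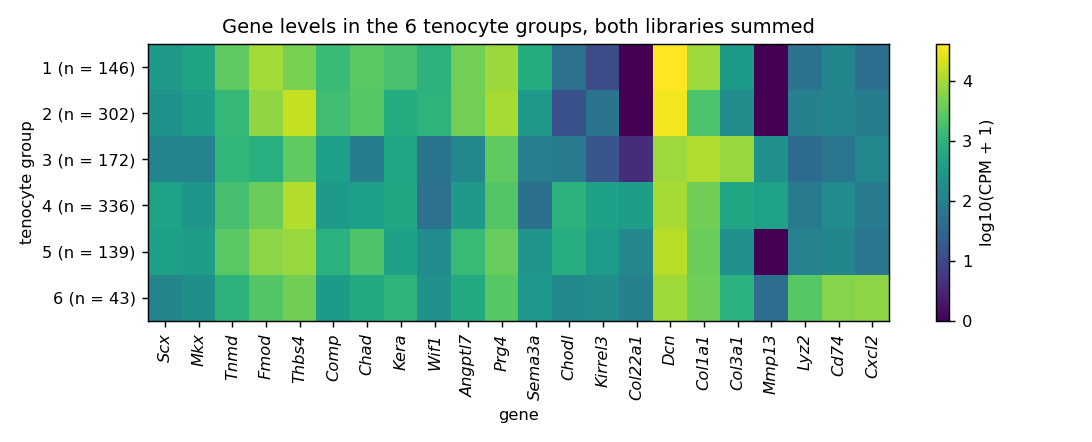
Levels of 22 genes, as log10(CPM + 1), in the 6 tenocyte groups with both libraries summed; n is the number of cells. Dcn was highest in groups 1 and 2, Col3a1 in group 3, Col22a1 and Mmp13 in group 4, and Lyz2, Cd74 and Cxcl2 in group 6.

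Between the libraries most tenocyte genes lay close together. Of 5554 genes with at least 100 UMIs in at least 20 tenocytes, 44 were at least 2-fold higher in SPP1-nAb, which is 0.792%, and 32 at least 2-fold lower, which is 0.576%. The median log2 ratio was 0.00 and the quartiles -0.17 and 0.19. Of the 44, 11 were also at least 2-fold higher in FAP-like cells and 12 were lower there. Of the 32, 5 were also at least 2-fold lower in FAP-like cells and 14 were higher there. The matching shares of all genes in FAP-like cells were not counted, so these overlaps are a description only. In many of these genes a few cells of a library held most UMIs. Without genes that had most of their UMIs in 10 cells of either library, 24 higher and 15 lower genes remained, among 5377 of the 5554 genes. This setting was added once the data had been seen. It also removes genes that are scarce in 1 library, such as S100a5, with 13 UMIs in 9 SPP1-nAb cells.

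Mmp13, collagenase-3, which cleaves fibrillar collagen (chr9:7272514-7283331, GRCm39), had the largest ratio. It stood at 34.2 CPM in IgG (86 UMIs) and at 366 CPM in SPP1-nAb (683 UMIs), a log2 ratio of 3.42 (interval 3.10 to 3.76). Those UMIs came from 10 of 715 IgG cells and 33 of 423 SPP1-nAb cells, and 10 cells held 80.8% of the SPP1-nAb UMIs. At 2000 UMIs per cell a UMI of Mmp13 was found in 1.95% of IgG tenocytes (0.941 to 3.56%) and 7.69% of SPP1-nAb tenocytes (5.09 to 11.1%), leaving out 203 and 85 shallower cells, against 1.40% and 7.80% at full depth. Barcodes with Csf1r gave 1.97% and 1.51% at that depth, so the IgG share did not exceed the one in cells of another type. Mmp13 had 0 UMIs in groups 1, 2 and 5. Group 4 held 30 and 412 of its UMIs and group 3 held 53 and 261. In FAP-like cells it was rare, with 5 and 36 UMIs, at a log2 ratio of 3.51.

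Among the other higher genes, Ankrd1, a YAP target of stretched cells, stood at 25.1 and 101 CPM (log2 ratio 2.02, interval 1.60 to 2.45), and at 3.59 and 14.6 CPM in FAP-like cells, at the same log2 ratio of 2.02. Its UMIs came from 28 and 40 tenocytes, and 10 cells held 66.7% and 76.7% of them. Flrt2, an adhesion and guidance protein, stood at 43.4 and 167 CPM (1.95, 1.63 to 2.28), in 65 and 107 cells. It was less concentrated, with 32.1% and 44.5% of its UMIs in 10 cells, but group 3 held 78 of its 109 and 224 of its 312 UMIs. Without groups 3 and 6, left out after seeing the data, its log2 ratio was 2.40 (1.70 to 3.15). FAP-like cells had more Flrt2, at 134 and 244 CPM, a log2 ratio of 0.87. At 2000 UMIs per cell Flrt2 was found in 5.27% and 14.2% of tenocytes. Mmp3, stromelysin-1, stood at 185 and 400 CPM, with a log2 ratio of 1.11. Bcl3, a regulator of NF-kB, stood at 22.3 and 60.1 CPM (1.43, 0.96 to 1.92) in 47 and 74 cells.

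Some higher genes lay mostly in group 6 or group 3. Ccl8, a chemokine for monocytes, stood at 25.1 and 101 CPM, but 135 of its 188 SPP1-nAb UMIs lay in group 6, and without that group its log2 ratio was 0.75. Fabp5, a fatty acid binding protein, stood at 58.5 and 164 CPM, with 255 of its 306 SPP1-nAb UMIs in group 6, and without that group its log2 ratio was 0.36 (-0.22 to 0.95). Iigp1, an interferon-induced GTPase, stood at 29.8 and 101 CPM and C4b, a complement protein, at 24.7 and 79.9 CPM, and both were also higher in FAP-like cells, at log2 ratios of 1.15 and 0.58. Csmd1, Thsd7a and Penk, which encodes proenkephalin, were higher in tenocytes but lower in FAP-like cells, at log2 ratios of -0.10, -0.58 and -0.39, and group 3 held 153 of the 173 Csmd1 UMIs and 175 of the 180 Penk UMIs of SPP1-nAb. Without groups 3 and 6, left out after seeing the data, the log2 ratio of Csmd1 was 0.24 (-1.82 to 2.21), that of Penk 0.50 (-1.62 to 2.62) and that of Thsd7a -1.09. The other named gene was Gm15726, a long noncoding RNA within Mid1 on the opposite strand, at 13.1 and 37.0 CPM.

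S100a5 had the largest ratio in the other direction, at 75.2 CPM in IgG (189 UMIs) and 6.97 CPM in SPP1-nAb (13 UMIs), a log2 ratio of -3.43 (-4.37 to -2.62). It came from 51 and 9 cells, and 10 cells held 76.2% of the IgG UMIs. IgG group 1 held 136 of the 189 UMIs, and this group had 135 IgG but 11 SPP1-nAb cells. Within it S100a5 stood at 324 CPM in IgG and, with 7 UMIs, at 212 CPM in SPP1-nAb, in 22.2% and 27.3% of cells. Tenocytes held 89.6% of all S100a5 UMIs of kept IgG barcodes, and FAP-like cells had 2 UMIs in each library. Omd, osteomodulin, stood at 127 and 47.2 CPM (-1.43, -1.79 to -1.09). Its UMIs came from 187 and 61 cells, and 10 cells held 16.9% and 30.7% of them. Groups 1 and 5, with only 11 and 24 SPP1-nAb cells, held 137 and 78 of its 320 IgG UMIs. Omd stood at 326 and 60.6 CPM in group 1 and at 269.5 and 66.5 CPM in group 5, with 2 and 5 SPP1-nAb UMIs. It was also lower in group 2, at 79.1 and 54.9 CPM, and in group 4, at 97.2 and 53.4 CPM. In group 3 it was higher, at 24.3 and 37.1 CPM. Cntfr, the receptor of ciliary neurotrophic factor, stood at 51.3 and 20.9 CPM (-1.30, -1.85 to -0.77) in 116 and 36 cells. Ecrg4, a secreted precursor peptide on the tendon list, stood at 1103 and 499 CPM, a log2 ratio of -1.15, while FAP-like cells had 37.1 and 45.9 CPM. Meis2, a homeobox factor, Nfatc2, a calcium-responsive factor, and Lrrc17 completed the matrix and regulatory genes, at log2 ratios of -1.38, -1.24 and -1.28, and Meis2 was lower in FAP-like cells as well, at -2.41.

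The other 6 lower genes were chemokine, phagocyte or interferon genes with most of their IgG UMIs in group 6. Cxcl2, a neutrophil attractant, stood at 696 and 271 CPM (-1.36, -1.505 to -1.216), and group 6 held 1555 of its 1750 IgG UMIs and 302 of its 506 SPP1-nAb UMIs. Without the 43 cells of that group, left out after seeing the data, the log2 ratio of Cxcl2 was 0.48. Il1b, interleukin-1 beta, stood at 127 and 43.4 CPM, and its log2 ratio of -1.55 became 1.14. Retnla, a marker of alternatively activated macrophages, went from -1.68 to 1.85, and Pf4, platelet factor 4, from -1.48 to 0.11. Isg15 and Ccl4 moved to -0.09 and -0.28. With that group left out 16 of the 24 named genes were still past 2-fold in their direction.

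**Figure D4:**
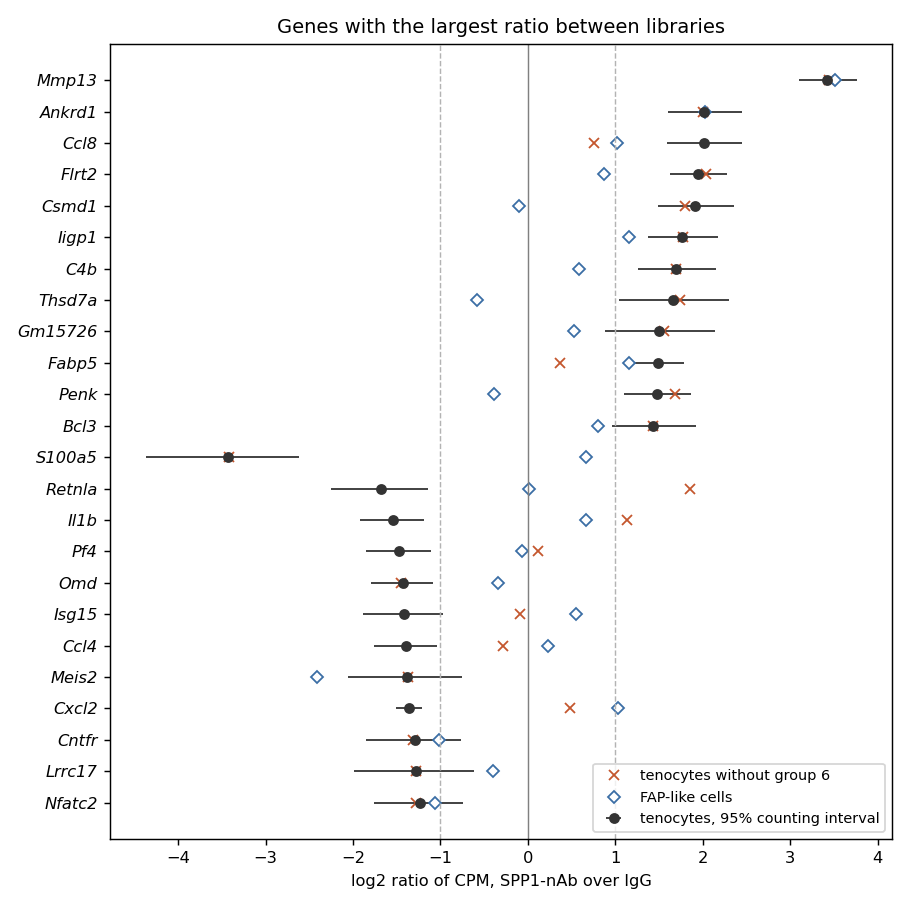
Log2 ratio of CPM, SPP1-nAb over IgG, for the 12 genes with the largest ratio in each direction, with 95% counting intervals, beside the ratio without group 6 and the ratio in FAP-like cells; dashed lines mark 2-fold. Mmp13 and S100a5 kept their ratios without group 6, whereas Cxcl2, Il1b, Retnla and Pf4 changed sign.

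Summed by list, collagens, small leucine-rich proteoglycans and the 20 tendon genes outside the rule were somewhat lower in SPP1-nAb tenocytes. Protease RNA was somewhat higher, and all of these sums differed by less than 2-fold. Other matrix lists were slightly higher, matricellular proteins at 21991 and 23443 CPM and elastic fibre and fibronectin matrix at 9107 and 9595 CPM. The 6 rule genes, used for the selection, summed to 14564 and 17053 CPM. The 19 collagens summed to 24810 CPM in IgG tenocytes and 18966 CPM in SPP1-nAb tenocytes, a log2 ratio of -0.39 (-0.41 to -0.37). None of the 19 was past 2-fold and their median log2 ratio was -0.18, beside 0.00 over all genes. Col1a1 had a log2 ratio of -0.69, Col1a2 of -0.36 and Col14a1 of 0.82. In FAP-like cells the same sum went from 21452 to 27430 CPM, a log2 ratio of 0.35, so the libraries differed in opposite directions in the 2 classes, which was not tested. Within the tenocyte groups the sum was lower in SPP1-nAb in group 3, at 45788 and 32256 CPM, and in group 2, at 10783 and 7330 CPM, but close in group 4, at 14140 and 14470 CPM, and higher in group 5, at 11825 and 15611 CPM.

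The small leucine-rich proteoglycans, a list that includes Fmod, summed to 34638 and 28617 CPM (-0.28, -0.29 to -0.26). Of 11 counted, Podn, at 25.9 and 58.5 CPM, was 2-fold higher and Omd 2-fold lower. Bgn (biglycan) and Lum (lumican) were higher by less, at log2 ratios of 0.33 and 0.57, while Ogn, Aspn and Ecm2 had -0.48, -0.50 and -0.75. The 20 tendon genes outside the rule summed to 12143 and 9749 CPM (-0.32, -0.34 to -0.29), and Ecrg4 alone was past 2-fold. Within groups this list stood at 18054 and 17298 CPM in group 2, 6671 and 6349 CPM in group 3, 8231 and 6092 CPM in group 4 and 11980 and 14494 CPM in group 5. The proteoglycans were lower in SPP1-nAb in groups 2 and 4 and higher in group 3, at 17684 and 20014 CPM, and in group 5, at 33902 and 36941 CPM. Both lists were highest in group 1, the proteoglycans at 65689 and 61979 CPM and the tendon genes at 23433 and 19600 CPM. That group held 135 IgG and 11 SPP1-nAb cells, 18.9% of IgG but 2.60% of SPP1-nAb tenocytes. The sums therefore do not describe a lowering in every group, and the part of group 1 in them was not tested. Kera and Chad were at -0.17 and -0.38. Scx and Mkx, at -0.02 and -0.11, lay near the median of all genes, and 27 genes of collagen processing and crosslinking, with 22 counted and none past 2-fold, summed to 5161 and 5040 CPM.

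Of 17 counted matrix proteases and inhibitors, Mmp13 and Mmp3 were past 2-fold, both higher, beside 0.792% higher and 0.576% lower of all genes. The median log2 ratio of the list was 0.40. Both genes lay in few cells. Mmp13 had UMIs in 10 IgG and 33 SPP1-nAb cells. Mmp3 had a UMI in 26.7% of group 3 cells, 10.7% of group 4 cells and 9.30% or less of the other groups. The list summed to 5086 and 6386 CPM (0.33, 0.29 to 0.36). Mmp2, a gelatinase, stood at 533 and 759 CPM, Mmp14, which activates it, at 432 and 550 CPM, and Timp1, an inhibitor, at 458 and 632 CPM, whereas Timp2 and Timp3 were at -0.08 and 0.05. The cytokine and chemokine list had a log2 sum ratio of 0.26, which was 0.59 without group 6 and -0.02 (-0.07 to 0.03) with at least 4 rule genes. Of its 20 counted genes, beside 0.792% higher and 0.576% lower of all genes, 4 were 2-fold higher, Cxcl14, Il33, Ccl8 and C4b, and 2 lower, Cxcl2 and Il1b. Il33, an alarmin, stood at 59.3 and 128 CPM. Immediate-early genes that respond to tissue dissociation, all 19 counted and none past 2-fold, summed to 18376 and 17039 CPM. Fos stood at 4471 and 4014 CPM.

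**Figure D5:**
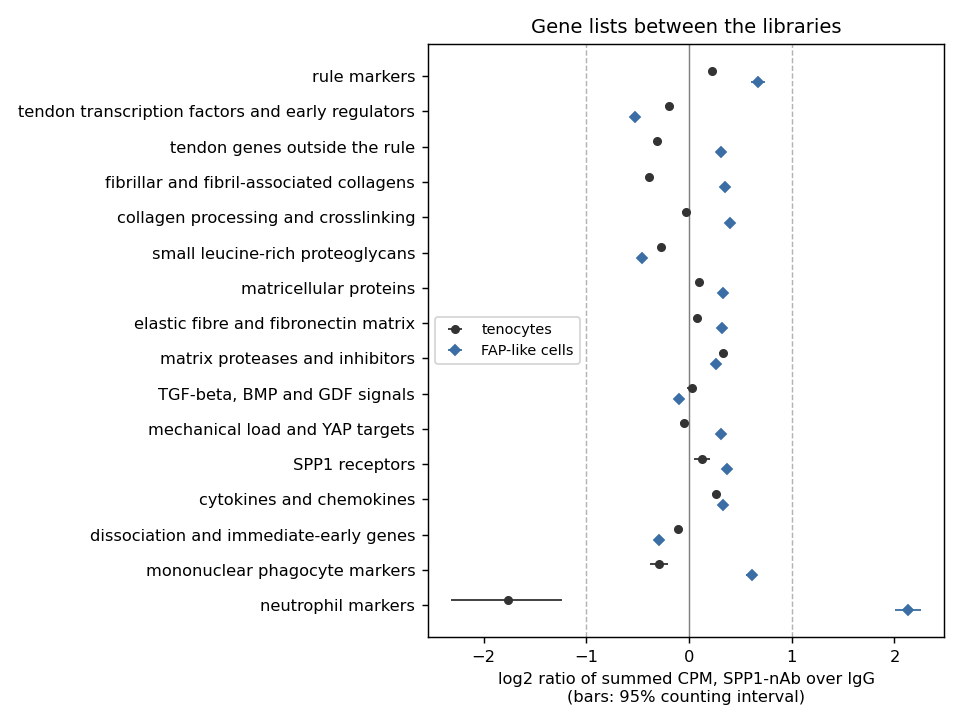
Log2 ratio of summed CPM, SPP1-nAb over IgG, for 16 gene lists in tenocytes and FAP-like cells, with 95% counting intervals; dashed lines mark 2-fold. Collagens stood at -0.39 in tenocytes and 0.35 in FAP-like cells, and neutrophil markers at -1.76 and 2.13. In IgG tenocytes, neutrophil markers stood at 931 CPM in group 6 and at 7.68 CPM or less in the other groups.

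The 12 counted Wnt genes had a median log2 ratio of 0.41 and the 13 neurotrophic and axon guidance genes of 0.24, and none of either list was past 2-fold. SPP1 binds integrins and CD44, and of 11 such receptor genes 7 were counted and none was past 2-fold. Itgb1 stood at 621 and 645 CPM, Cd44 at 282 and 341 CPM, and Itgav at 110 and 125 CPM. Spp1 itself had 124 UMIs in IgG and 54 in SPP1-nAb tenocytes, 49.4 and 29.0 CPM, against 609 and 964 CPM in barcodes of no named class. At 2000 UMIs per cell 5.66% and 5.62% of tenocytes had a UMI of Spp1, against 6.56% and 8.67% of FAP-like cells and 18.1% and 27.6% of barcodes with Csf1r, so these UMIs are not read as expression by tenocytes. Sema3a stood at 271 and 145 CPM, a log2 ratio of -0.90, but within group 1, which it helped to define, at 685 and 1212 CPM in 135 and 11 cells. Bdnf, a neurotrophin, had too few UMIs to be counted, at 12.3 and 35.9 CPM, and Igf1 stood at 692 and 778 CPM.

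RNA of other cell types was present at low levels and moved with some results. The 10 phagocyte markers, Spp1 among them, summed to 1110 CPM in IgG tenocytes and 904 CPM in SPP1-nAb tenocytes, and 59.2% and 72.8% of cells had a UMI of at least 1 of them. The log2 ratio of that sum was -0.30, and 0.30 without group 6. Lyz2 stood at 282 and 165 CPM, Csf1r was 0 by the rule, and their part in the chemokine differences was not tested beyond leaving out group 6. Neutrophil markers summed to 67.3 and 19.9 CPM, with S100a9 at 31.0 and 8.04 CPM. Endothelial markers stood at 17.9 and 22.5 CPM, Schwann cell markers at 11.1 and 20.9 CPM, myofibre markers at 56.9 and 67.0 CPM, pericyte and smooth muscle markers at 53.3 and 52.6 CPM, and lymphocyte markers at 2.39 and 1.61 CPM. FAP-like markers summed to 1353 and 1995 CPM, with Cxcl14 at 470 and 947 CPM and Smoc2 at 166 and 343 CPM. Their part in the library differences was not tested, and in group 3, which held most of the Smoc2 RNA, IgG cells held 2109 CPM of them and SPP1-nAb cells 3942 CPM.

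The reporter of the sort was also counted. The Gfp feature had 412 UMIs in IgG and 298 in SPP1-nAb tenocytes, 164 and 160 CPM, with a UMI in 27.6% and 32.4% of cells. FAP-like cells had 52.4 and 59.5 CPM and barcodes of no named class 208 and 263 CPM. S100b, whose promoter drives the transgene, had 6 and 5 UMIs in tenocytes, 2.39 and 2.68 CPM. At 2000 UMIs per cell 23.0% and 24.6% of tenocytes and 28.3% and 34.4% of barcodes with Csf1r had a Gfp UMI, against 7.58% and 9.13% of FAP-like cells. The tenocyte share thus lay between those of other cell types, and whether it reflects expression of the transgene was not tested.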

How the data were processed

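Cells were sorted by FACS and run on a 10X Genomics controller. The authors aligned and counted the reads with Cell Ranger, version 8.0.0 per the labels and 9.0.1 per the file headers, on GRCm39. The deposited counts are UMIs per gene and barcode, raw and before the study's own correction for free RNA, doublet removal and integration. There were 32287 features and 97607674 and 127719916 UMIs.

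From these, tenocytes and comparison classes were selected by marker genes, UMIs were summed per class and library and expressed as CPM, and differences of at least 2-fold are called. Poisson, Clopper-Pearson and conditional binomial intervals (95%) cover counting error only. Against FAP-like cells a count of 0 was set to a floor of 3 counts, and between libraries no floor was used. With 1 library per condition there was no test. Doublets were scored with 2 simulated doublets per barcode and kept. Groups were made with Scanpy 1.11.5 (Leiden, resolution 0.5). The script was tested on simulated data. Members, 39 gene lists and comparisons were chosen with earlier results of these data known. Named genes were the 10 rule genes, list genes with at least 20 UMIs in order of summed CPM, 12 genes per direction between libraries, 20 against FAP-like cells and 5 leading genes per group, without mitochondrial, ribosomal protein, haemoglobin, immunoglobulin and sex genes. Other genes named were chosen after their values were seen.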

Additional observations from a re-analysis of the deposited data

Results flagged for a closer look

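Cxcl2 stood out because the libraries differed by at least 2-fold in opposite directions in tenocytes and in FAP-like cells. The log2 ratio of SPP1-nAb over IgG was -1.36 in tenocytes and 1.03 in FAP-like cells, where Cxcl2 stood at 258 and 525 CPM. The difference between the classes was not tested, since each condition was 1 library. In tenocytes without group 6 the log2 ratio was 0.48. With 5% free RNA subtracted Cxcl2 had no ratio in tenocytes, because a library was left with no UMIs of it.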

How the results depend on the processing

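No paired analysis was possible because each condition was 1 library, and for the same reason no replicate could be left out. The log2 ratio of tenocyte shares was -0.66 with at least 2 rule genes and 0.42 as a share of the connective-tissue classes. Genes at least 2-fold higher in SPP1-nAb numbered 44, against 71 with at least 2 rule genes, 29 with at least 4, 75 without the top 10% of doublet scores, 129 with a minimum of 30 UMIs and 18 with cells thinned to 2000 UMIs. Lower genes numbered 32, against 161 with the minimum of 30 UMIs and 17 after thinning. Leaving out genes with most of their UMIs in 10 cells gave 24 and 15. Against FAP-like cells, 451 genes were higher with the minimum of 30 UMIs, 310 were lower with at least 2 rule genes and 1065 were lower without groups 3 and 6. Leaving out groups or concentrated genes was chosen after seeing the data.

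The sums of collagens, small leucine-rich proteoglycans, tendon genes outside the rule and matrix proteases did not change direction in the settings run. None of these settings left out group 1, which held 135 IgG and 11 SPP1-nAb cells, so they do not show how far the sums rest on it. Collagens (-0.39) were at -0.22 with at least 2 rule genes, -0.47 with at least 4, -0.30 without the excluded genes being applied, -0.35 without top doublet scores, -0.44 without group 6 and -0.48 without groups 3 and 6. Small leucine-rich proteoglycans (-0.28) were at -0.36, -0.26, -0.33 and -0.33 under the first 4 of these, -0.36 without groups 3 and 6, and -0.30 when Ptprc, Cdh5 and Rgs5 were excluded too. Tendon genes outside the rule (-0.32) were at -0.45 and -0.24 with at least 2 and 4 rule genes, -0.38 without top doublet scores and -0.35 without groups 3 and 6, and proteases (0.33) at 0.26 and 0.37 with at least 2 and 4. Clustering at resolution 1 gave 11 groups, and as little as 32.1% of the cells of a main group stayed together.

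Among named genes, 18 values changed sign. With at least 4 rule genes Thsd7a was at -1.03, Penk at -0.15 and Retnla at 1.66. Without exclusion Il1b was at 0.67 and Ccl4 at 0.39. Without top doublet scores Il1b was at 0.43, Pf4 at 0.90 and Cxcl2 at 0.72. Without group 6 Retnla was at 1.85, Il1b at 1.14, Pf4 at 0.11 and Cxcl2 at 0.48. Without groups 3 and 6 Thsd7a was at -1.09, Retnla at 2.15, Il1b at 1.22, Pf4 at 0.24, Isg15 at 0.42 and Cxcl2 at 0.28. The causes were not tested. Mmp13, Ankrd1, Flrt2, Iigp1, Gm15726, Bcl3, S100a5, Omd, Meis2 and Cntfr stayed past 2-fold in all 13 settings that gave them a ratio. Among those settings, scaling by the median log2 ratio (0.00) and lowering the UMI minimum could hardly change a ratio, so they are no check. Leaving out genes with most of their UMIs in 10 cells of either library kept only Flrt2, Bcl3, Omd and Cntfr of these genes. No setting left out group 1 or group 5, which held most IgG UMIs of S100a5 and Omd. With 5% free RNA subtracted, Ccl8, Retnla, Il1b, Pf4, Ccl4 and Cxcl2 had no ratio, because a library was left with no UMIs of the gene in tenocytes. The subtracted profile was that of the other kept barcodes. Without groups 3 and 6, Lrrc17 had no ratio for the same reason.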
